A study of Homo sapiens with 18 samples.

Results

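The genes followed here are YAP1 and WWTR1, which encode the transcriptional coactivators YAP and TAZ, their DNA-binding partner TEAD1, the target genes CCN1, CCN2, ANKRD1, AMOTL2, AXL and LATS2, and AJUBA, which encodes a LIM-domain regulator of the Hippo kinases. They were picked by gene symbol from the deposited table of the series. All 10 were among its 17017 genes, and all 10 had enough counts to be tested in RNA and in ribosome footprints. The measurements were made in MDA-MB-231, a long-established human line from a triple-negative breast carcinoma. The cells had been transduced with lentiviral pLKO.1 particles with a scramble control or with a hairpin that targets fibrillarin (FBL), kept with the virus for 48 h and selected for 96 h with puromycin or hygromycin. The labels do not say which of these drugs served here. The scramble control (labelled SC) therefore shares the vector and the transduction with both hairpin groups, labelled SH2 and SH3. Whether the drug was the same in all groups is not stated. The study names its hairpins knockdown 1 and 2, without a statement in the labels of how these match SH2 and SH3. Cells received cycloheximide at 100 µg/ml for 5 min before lysis, which holds elongating ribosomes on the mRNA. Each treatment has 3 libraries of cytoplasmic input RNA (IN, called RNA below) and 3 libraries of ribosome-protected fragments (RPF, called footprints below), 18 libraries in all. No label says that the replicates are separate cultures, so each p-value measures only the spread between these libraries. Each library came from a bulk lysate, in which less RNA per cell and fewer expressing cells cannot be told apart.

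YAP and TAZ are the effectors of the Hippo pathway. When the kinases MST1 and MST2 and then LATS1 and LATS2 are active, YAP and TAZ are phosphorylated, held in the cytoplasm and degraded. When the kinases are silent, for instance in stretched or spread cells, both coactivators enter the nucleus, bind TEAD factors and raise the transcription of genes such as CCN1, CCN2, ANKRD1 and AMOTL2. Activity is thus set largely by the location of the proteins, which neither RNA nor footprints show. MDA-MB-231 carries a mutation of the upstream regulator NF2 and is known for high YAP and TAZ activity. Fibrillarin, the enzyme of box C/D small nucleolar particles, methylates the ribose of ribosomal RNA.

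Library totals were 23469830 to 27629488 counts in RNA and 1662705 to 6098648 in footprints. Levels are given as counts scaled to a common library size (CPM), scaled between libraries of one kind with edgeR's TMM factors. They can be compared between libraries but not between genes, since transcript lengths were not used. The targeted gene FBL had a mean RNA level of 388 ± 36.4 CPM (SD, n = 3) with SC, 5.67 ± 5.09 with SH2 and 3.49 ± 0.612 with SH3, which is 1.46% and 0.898% of SC. Its footprints stood at 4.7% of SC in SH2 and 2.09% in SH3, and SH2 replicate 3 was the highest hairpin library in both, at 11.2 CPM in RNA and 30.1 CPM in footprints. The cell line's markers VIM, CD44, KRT18 and EGFR were present in SC RNA (5579, 316, 494 and 197 CPM), while ESR1, PGR, CDH1 and KRT5 averaged at most 0.337 CPM in any treatment and GATA3 stood at 8.03 CPM in SC. EGFR was higher in both hairpin groups (912 CPM in SH2, 615 in SH3), and its part in the results was not tested. Replicate numbers 1 and 2 did not tie the RNA and footprint libraries together in SC and SH2. Over 10335 genes, the deviations of SC RNA replicate 1 from its group mean followed those of footprint replicate 2 (r = 0.57) and ran against footprint replicate 1 (r = -0.488), and the same crossing was seen in SH2 (r = 0.558 and -0.301). Replicate 3 matched its own number in both (r = 0.263 in SC and 0.497 in SH2). In SH3 all 3 numbers matched (r = 0.207 to 0.415). For this reason no ratio of footprints to RNA was formed within a replicate number in the main tests. Only the alternative fit of translational efficiency with a replicate block used the numbers, the crossed ones in SC and SH2 included.

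A gene was counted as changed (higher or lower) where edgeR's quasi-likelihood test, adjusted by the Benjamini-Hochberg method over all genes tested, gave p under 0.05. In RNA 6 of the 10 genes changed with each hairpin. With SH2 2 were higher and 4 lower, where 61.4% of 12710 genes were called (31.1% higher and 30.4% lower). With SH3 3 were higher and 3 lower, where 53.0% of genes were called (27.8% higher and 25.2% lower). YAP1 and AJUBA were higher and TEAD1, CCN2 and ANKRD1 lower with both hairpins. AXL was lower with SH2, and LATS2 was higher with SH3. These shares lie near those of all genes. The median log2 change of the 10 genes was -0.30 with SH2 and -0.063 with SH3, beside 0.012 and 0.034 over all genes tested. Both hairpins are set against the same 3 SC libraries, so the 2 comparisons are not independent. The ranges of the 3 and 3 RNA libraries were apart for 5 genes with each hairpin, which held for 64.3% of all genes with SH2 and 62.9% with SH3.

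**Figure D1:**
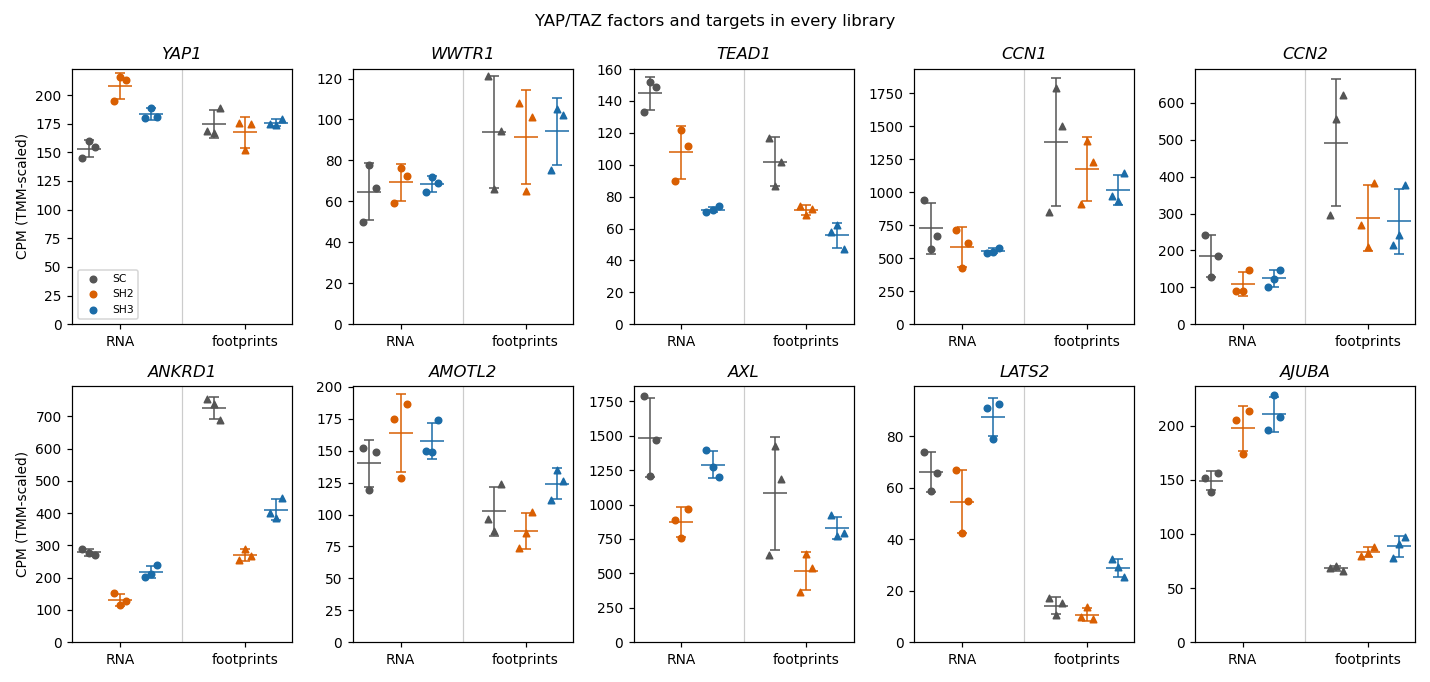
Each panel shows one gene, with CPM scaled by TMM factors on the y axis (from 0), circles for RNA and triangles for footprints, one symbol per library in SC (grey), SH2 (orange) and SH3 (blue), with bars for the mean and SD of 3 libraries. ANKRD1 footprints lie between 688 and 753 CPM in SC and between 255 and 447 CPM in the hairpin libraries, while the 9 YAP1 footprint libraries span 152 to 189 CPM.

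Of the coactivators, YAP1 rose in RNA and did not pass the test in footprints. Its RNA stood at 145, 160 and 155 CPM in the SC libraries, 195, 216 and 213 in SH2 and 180, 189 and 181 in SH3. All 6 hairpin libraries were above all SC libraries, and the SH2 libraries were above those of SH3. The log2 change was 0.44 ± 0.086 (SE) with SH2 and 0.26 ± 0.086 with SH3, with edgeR adjusted p of 0.000483 and 0.0195. The SH3 call was lost when any of 5 libraries was left out, SC replicates 1 and 3 and each SH3 replicate, with changes of 0.20 to 0.27 and edgeR adjusted p up to 0.104. YAP1 footprints were 169, 167 and 189 CPM in SC, 176, 152 and 175 in SH2 and 175, 174 and 179 in SH3. These ranges overlap, and the log2 changes were -0.066 ± 0.13 and 0.0057 ± 0.13 (edgeR adjusted p = 0.698 and 0.975).

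WWTR1, the gene of TAZ, did not pass the test in any comparison. Its RNA was 50, 78 and 66.4 CPM in SC, 59.1, 76.2 and 72.6 in SH2 and 64.4, 72.1 and 69.1 in SH3. Footprints were 121, 66.1 and 94.4 CPM in SC, 108, 65.3 and 101 in SH2 and 75.5, 105 and 102 in SH3. The SC libraries span the hairpin libraries in RNA and, but for SH2 replicate 2 just below them, in footprints. Within SC and SH2, replicate 1 was lowest in RNA and highest in footprints, and replicate 2 the reverse, the crossing of numbers seen over all genes. The log2 RNA changes were 0.10 ± 0.14 and 0.081 ± 0.14 (edgeR adjusted p = 0.569 and 0.659).

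TEAD1 encodes the factor through which YAP and TAZ reach DNA, and it fell in RNA and in footprints with both hairpins. RNA stood at 133, 152 and 149 CPM in SC, 89.6, 122 and 112 in SH2 and 70.4, 71.4 and 73.9 in SH3. The 3 treatments did not overlap and ran in the order SC, SH2, SH3. The log2 change was -0.42 ± 0.11 with SH2 (edgeR adjusted p = 0.00441) and -1.01 ± 0.11 with SH3 (edgeR adjusted p = 7.93e-06). Footprints were 117, 86.4 and 102 CPM in SC, 74.1, 68.3 and 72.5 in SH2 and 58, 62 and 47 in SH3, again without overlap and in the same order. The footprint changes were -0.52 ± 0.15 and -0.88 ± 0.16 (edgeR adjusted p = 0.0115 and 0.000508). The SH2 footprint call ended without SC replicate 1 (-0.40, edgeR adjusted p = 0.0534) or without SH2 replicate 2 (-0.47).

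TEAD factors bind the MCAT motif, CATTCC on one strand and GGAATG on the other. AP-1 factors often act beside them, and TGANTCA, with any base in the middle, was searched as a loose form of their motif. The 250 bases before the annotated start were taken from RefSeq promoters (GRCh38.p14), in which 8 of the 10 genes were found, with 12 start sites. TEAD1 and CCN1 were not among them. MCAT was searched on both strands and occurred in 6 of the 8 genes (6 of 12 windows), against 11.9% of 35116 windows of all genes. The loose AP-1 pattern occurred in 1 of the 8 genes (ANKRD1) and 1 of 12 windows, against 6.57% of all windows. The CArG box bound by SRF occurred in 0 of the 8 and 0 of 12 windows, against 1.16% of all windows. No match overlapped another motif. The windows below belong to genes called in RNA with both hairpins, and capitals mark the motif matches on the strand of the gene. CCN2 lies on the minus strand at chr6:131951373-131951622 and holds 3 MCAT matches. ANKRD1, on the minus strand at chr10:90921088-90921337, holds 2 with a match to the loose AP-1 pattern, TGATTCA, between them. YAP1, on the plus strand at chr11:102110197-102110446, holds 1. For AJUBA the window of one of its start sites is shown, on the minus strand at chr14:22976843-22977092, with 1 match.
CCN2: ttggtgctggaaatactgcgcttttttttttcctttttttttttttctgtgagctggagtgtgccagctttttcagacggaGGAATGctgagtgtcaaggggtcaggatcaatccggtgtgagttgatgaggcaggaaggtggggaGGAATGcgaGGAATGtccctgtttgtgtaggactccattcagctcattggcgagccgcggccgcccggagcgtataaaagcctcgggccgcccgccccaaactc
ANKRD1: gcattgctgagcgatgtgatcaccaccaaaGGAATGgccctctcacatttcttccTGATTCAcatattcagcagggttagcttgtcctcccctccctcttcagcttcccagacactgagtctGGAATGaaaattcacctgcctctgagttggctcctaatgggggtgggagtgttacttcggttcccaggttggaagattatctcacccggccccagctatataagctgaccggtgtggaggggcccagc
YAP1: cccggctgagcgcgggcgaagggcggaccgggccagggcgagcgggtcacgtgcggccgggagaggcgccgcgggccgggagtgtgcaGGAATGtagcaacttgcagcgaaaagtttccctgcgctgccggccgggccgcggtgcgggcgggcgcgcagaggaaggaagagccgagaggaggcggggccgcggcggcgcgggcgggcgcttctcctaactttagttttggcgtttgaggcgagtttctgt
AJUBA: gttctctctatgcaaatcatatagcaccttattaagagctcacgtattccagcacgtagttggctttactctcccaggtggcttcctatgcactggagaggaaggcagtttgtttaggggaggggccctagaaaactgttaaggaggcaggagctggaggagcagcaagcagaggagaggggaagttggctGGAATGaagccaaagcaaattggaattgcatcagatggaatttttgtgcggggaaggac
The match nearest the start began 95 bases before it in CCN2, 128 in ANKRD1, 162 in YAP1 and 59 in AJUBA. Genes with a match moved in both directions: CCN2 and ANKRD1 fell in RNA, and YAP1 and AJUBA rose. AXL and AMOTL2 also hold an MCAT match, each at a single start site. AXL RNA was lower with SH2 only, and AMOTL2 RNA did not pass against SC. A match describes these letters and is not a measured site of binding.

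ANKRD1, a muscle ankyrin-repeat protein and a direct YAP target, showed the largest fall of the 10 genes in footprints with SH2. RNA was 290, 276 and 270 CPM in SC, 152, 115 and 127 in SH2 and 202, 211 and 238 in SH3. Footprints were 753, 737 and 688 CPM in SC, 255, 290 and 266 in SH2 and 400, 385 and 447 in SH3. In RNA and in footprints the 3 treatments stood apart, with SC highest and SH2 lowest. RNA fell by 1.08 ± 0.11 on the log2 scale with SH2 (edgeR adjusted p = 1.86e-06) and by 0.36 ± 0.11 with SH3 (edgeR adjusted p = 0.0126). Footprints fell by 1.43 ± 0.12 and 0.82 ± 0.12 (edgeR adjusted p = 7.71e-07 and 0.000131). Each of these calls held in every alternative tried. The coefficient of variation of ANKRD1 RNA was 3.63% in SC, 14.4% in SH2 and 8.58% in SH3, beside medians of 8.13%, 10.1% and 6.79% over genes with at least 10 CPM.

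CCN1 and CCN2 encode secreted matricellular proteins and are the most used readouts of YAP and TAZ. CCN2 RNA was 242, 129 and 184 CPM in SC, 89, 90.8 and 148 in SH2 and 102, 122 and 148 in SH3. Its footprints were 297, 557 and 621 CPM in SC, 269, 208 and 384 in SH2 and 215, 243 and 378 in SH3. One or more hairpin libraries lay within the SC range in each case. CCN2 RNA fell by 0.76 ± 0.22 with SH2 and 0.58 ± 0.22 with SH3 on the log2 scale (edgeR adjusted p = 0.00905 and 0.0417), and footprints by 0.78 ± 0.27 and 0.81 ± 0.27 (edgeR adjusted p = 0.0268 and 0.0265). Each of these calls was lost when 1 of certain libraries was left out. The SH2 RNA call ended without SH2 replicate 2 (-0.65, edgeR adjusted p = 0.0509), and the SH3 RNA call ended without SC replicate 1 (-0.35, edgeR adjusted p = 0.171), SC replicate 3, SH3 replicate 1 or SH3 replicate 2. In footprints the SH2 call ended without SC replicate 2 or 3 or SH2 replicate 1 or 2 (edgeR adjusted p up to 0.139), and the SH3 call without SC replicate 2 or 3 or SH3 replicate 1 or 2 (up to 0.137). With DESeq2 the 3 calls other than SH2 RNA were lost too (adjusted p = 0.107, 0.106 and 0.0997).

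CCN1 did not pass in any comparison in the main fits, which use all libraries of a kind and no block. Its RNA was 941, 571 and 668 CPM in SC, 716, 423 and 613 in SH2 and 543, 549 and 580 in SH3, and its footprints 846, 1791 and 1501 CPM in SC, 908, 1390 and 1225 in SH2 and 968, 933 and 1147 in SH3. Within SC, replicate 1 was highest in CCN1 RNA and lowest in CCN1 footprints, and replicate 2 the reverse, the crossing of numbers seen over all genes. The group means were lower than SC in all 4 comparisons, with log2 changes of -0.32 ± 0.18 and -0.38 ± 0.18 in RNA and -0.23 ± 0.22 and -0.44 ± 0.22 in footprints (edgeR adjusted p = 0.151, 0.0947, 0.410 and 0.127). CCN1 and CCN2 varied more between replicates than most genes, with coefficients of variation of 26.4% and 30.3% over the SC RNA libraries and 35.1% and 34.9% over the SC footprint libraries, where the medians of all genes were 8.13% and 14.7%. SC and SH2 libraries of the same number deviated together, and CCN1 RNA was lower in SH2 in all 3 same-numbered pairs. In the fit with the replicate block the RNA changes passed with SH2 (-0.32, edgeR adjusted p = 0.0387) and with SH3 (-0.34, edgeR adjusted p = 0.0313). Whether CCN1 passed also turned on the library left out. Without SC replicate 2 its RNA change was -0.46 with SH2 and -0.53 with SH3 (edgeR adjusted p = 0.0412 and 0.0257). Without SH2 replicate 1 the SH2 RNA change was -0.49 (edgeR adjusted p = 0.0399). Without SC replicate 1 the RNA changes were -0.10 with SH2 and -0.17 with SH3, which did not pass. The footprint changes were -0.48 and -0.68 without SC replicate 1 (edgeR adjusted p = 0.0222 and 0.00291). Without SC replicate 2 they were 0.0015 and -0.20 and did not pass.

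AXL encodes a receptor tyrosine kinase and has been reported as a YAP target. Its RNA was 1787, 1207 and 1467 CPM in SC, 890, 758 and 969 in SH2 and 1395, 1271 and 1202 in SH3. The SH2 libraries lay below those of SC and SH3, and SC and SH3 overlapped. RNA fell by 0.77 ± 0.14 with SH2 on the log2 scale (edgeR adjusted p = 0.000242), and the SH3 change was -0.21 ± 0.14 (edgeR adjusted p = 0.216). Footprints were 632, 1427 and 1182 CPM in SC, 368, 644 and 541 in SH2 and 923, 771 and 792 in SH3. SC and SH2 overlapped through SC footprint replicate 1. Within SC, replicate 1 was highest in RNA and lowest in footprints, and replicate 2 the reverse, the crossing of numbers seen over all genes. The footprint changes were -1.06 ± 0.24 with SH2 (edgeR adjusted p = 0.00220) and -0.38 ± 0.24 with SH3 (edgeR adjusted p = 0.227). The SH3 changes passed without SC replicate 2 in RNA (-0.34, edgeR adjusted p = 0.0418) and without SC replicate 1 in footprints (-0.64, edgeR adjusted p = 0.00832). They shrank to -0.069 without SC replicate 1 in RNA and to -0.13 without SC replicate 2 in footprints.

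AMOTL2, an angiomotin-family target that binds YAP and holds it in the cytoplasm, did not pass the test against SC. RNA was 152, 119 and 149 CPM in SC, 175, 129 and 187 in SH2 and 150, 149 and 174 in SH3, and footprints 96.3, 87.2 and 124 CPM in SC, 73.7, 85.8 and 102 in SH2 and 111, 135 and 126 in SH3. Both hairpin groups overlapped SC, with log2 changes of 0.23 ± 0.14 and 0.17 ± 0.14 in RNA and -0.24 ± 0.16 and 0.27 ± 0.16 in footprints (edgeR adjusted p = 0.160, 0.306, 0.252 and 0.206). The SH2 RNA change passed without SH2 replicate 2 (0.37, edgeR adjusted p = 0.0198) and shrank to 0.10 without SH2 replicate 3.

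LATS2 is both a target of YAP and the kinase that restrains it, and it changed with SH3. Its RNA was 74, 58.6 and 65.8 CPM in SC, 66.8, 42.3 and 54.9 in SH2 and 91.2, 79.2 and 92.7 in SH3. Its footprints were 17, 10.5 and 15.1 CPM in SC, 9.63, 13.5 and 9.06 in SH2 and 32.2, 29.1 and 25.2 in SH3. The SH3 libraries were the highest in both measures, and SC and SH2 overlapped. With SH3 the log2 change was 0.41 ± 0.14 in RNA and 0.96 ± 0.22 in footprints (edgeR adjusted p = 0.0288 and 0.00303). With SH2 it was -0.28 ± 0.15 and -0.42 ± 0.23 (edgeR adjusted p = 0.115 and 0.153). The SH3 RNA call ended without SC replicate 2 or 3 or SH3 replicate 1 or 3 (0.33 to 0.40, edgeR adjusted p up to 0.129), and the SH2 RNA change passed with the replicate block (-0.29, edgeR adjusted p = 0.0177) and when SH2 replicate 1 was left out (-0.44, edgeR adjusted p = 0.0144). LATS2 had the fewest footprints of the 10 genes, 25 to 105 counts per library.

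AJUBA, a LIM protein that inhibits the LATS kinases, rose in RNA with both hairpins. RNA was 152, 139 and 156 CPM in SC, 205, 174 and 213 in SH2 and 196, 228 and 208 in SH3. Footprints were 68.2, 70.4 and 66 CPM in SC, 79.2, 82.5 and 88.1 in SH2 and 77.9, 90.7 and 97.1 in SH3. Every hairpin library was above every SC library in both measures. The RNA changes were 0.40 ± 0.10 and 0.50 ± 0.10 (edgeR adjusted p = 0.00333 and 0.000995). In footprints they were 0.29 ± 0.14 and 0.39 ± 0.14 (edgeR adjusted p = 0.0927 and 0.0372). The SH3 footprint call was lost in 7 of 12 alternatives. They were leaving out SC replicate 1 or 3 or SH3 replicate 2 or 3 (edgeR adjusted p of 0.0534 to 0.143), no filter (0.0728), thinned footprints (0.0702) and a fit of only the treatments compared (0.0501).

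In footprints as a whole, 4 of the 10 genes changed with SH2, all lower (TEAD1, CCN2, ANKRD1 and AXL), where 44.2% of 10345 genes were called (21.0% higher and 23.2% lower). With SH3 2 were higher (LATS2 and AJUBA) and 3 lower (TEAD1, CCN2 and ANKRD1), where 35.9% were called (16.9% higher and 19.0% lower). The median log2 footprint change of the 10 was -0.33 with SH2 and -0.19 with SH3, beside -0.0042 and -0.014 over all genes. Footprint ranges were apart from SC for 3 genes with SH2 and 4 with SH3, beside 51.3% and 46.5% of all genes. The SH2 count was 2 without SH2 replicate 2, and the SH3 count was 3 without SC replicate 3 or SH3 replicate 2. In RNA the SH3 count of 6 was 3 without SC replicate 3 or SH3 replicate 1.

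**Figure D2:**
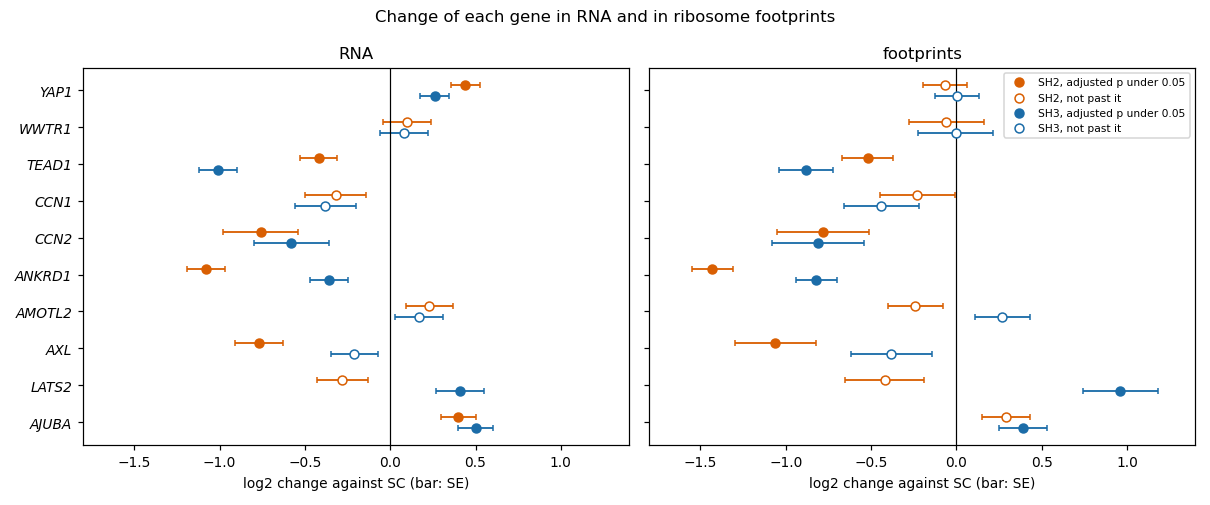
The log2 change against SC (x axis, with the SE as bar) is shown for each gene in RNA (left) and footprints (right), for SH2 in orange and SH3 in blue, with filled symbols where the edgeR adjusted p is under 0.05. ANKRD1 is furthest left in footprints with SH2 (-1.43), LATS2 furthest right with SH3 (0.96), and YAP1 is right of 0 in RNA (0.44 and 0.26) and close to 0 in footprints.

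Set directly against each other, the hairpins differed for several of the 10 genes. In RNA 1 was higher and 3 were lower in SH2 than in SH3, where 39.3% of all genes were called (18.9% higher and 20.4% lower). In footprints 0 were higher and 3 lower, where 23.8% were called (12.1% higher and 11.6% lower). TEAD1 RNA was higher in SH2 than in SH3 by 0.58 ± 0.11 (edgeR adjusted p = 0.00106), while its footprint difference of 0.37 ± 0.16 did not pass (edgeR adjusted p = 0.108) except with footprints thinned to one depth (0.52, edgeR adjusted p = 0.0356). ANKRD1 was lower in SH2 by both measures, with differences of -0.72 ± 0.11 in RNA and -0.60 ± 0.12 in footprints (edgeR adjusted p = 0.000182 and 0.00246). LATS2 was lower in SH2 too, with -0.68 ± 0.15 in RNA and -1.39 ± 0.23 in footprints (edgeR adjusted p = 0.00224 and 0.000568). For AXL the RNA difference was -0.56 ± 0.14 (edgeR adjusted p = 0.00495), and the footprint difference of -0.68 ± 0.24 missed the threshold (edgeR adjusted p = 0.0512). AMOTL2 differed in footprints, -0.51 ± 0.17 (edgeR adjusted p = 0.0344). That call ended without SH2 replicate 1 or 2 or SH3 replicate 2 or 3 (edgeR adjusted p up to 0.136). The AXL footprint difference passed in 6 of 12 alternatives, among them DESeq2 (adjusted p = 0.0326) and edgeR without SH2 replicate 2 (-0.86, adjusted p = 0.0376). Library ranges of SH2 and SH3 were apart for 5 genes in RNA and 5 in footprints, beside 50.0% and 42.0% of all genes.

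Translational efficiency is the footprint level over the RNA level, tested as the difference between the footprint and RNA changes in one edgeR fit of 18 libraries. Of the 10 genes YAP1 passed with SH2, where 3.90% of 12531 genes were called (2.46% lower), and 0 passed with SH3, where 0.686% were called (1 had an unadjusted p under 0.05 in edgeR, and 3 had one in DESeq2, which called 0 after adjustment). The group mean of YAP1 footprints over that of YAP1 RNA, in CPM, was 1.14 in SC, 0.805 in SH2 and 0.958 in SH3. The log2 change of YAP1 was -0.52 ± 0.14 with SH2 (edgeR adjusted p = 0.0355) and -0.24 ± 0.14 with SH3 (edgeR adjusted p = 0.495), and the difference between the hairpins did not pass (-0.28 ± 0.14, edgeR adjusted p = 0.445). The SH2 call was lost in 9 of 12 alternatives, among them leaving out replicate 1 or 3 of SC or any SH2 replicate, with edgeR adjusted p up to 0.163 and changes of -0.60 to -0.44. The largest value in size was that of LATS2 with SH3, which did not pass (0.55 ± 0.27, edgeR adjusted p = 0.400). AMOTL2 with SH2 (-0.48 ± 0.23, edgeR adjusted p = 0.262) and ANKRD1 with both hairpins (-0.35 ± 0.16 and -0.45 ± 0.16, edgeR adjusted p = 0.240 and 0.207) did not pass either. For TEAD1, CCN1, CCN2, AXL, WWTR1 and AJUBA the changes lay between -0.29 and 0.13, each smaller than its SE. Between SH2 and SH3, 0 of the 10 genes passed (2 had an unadjusted p under 0.05 in edgeR and 3 in DESeq2, which also called 0), where 0.0160% of genes were called.

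**Figure D3:**
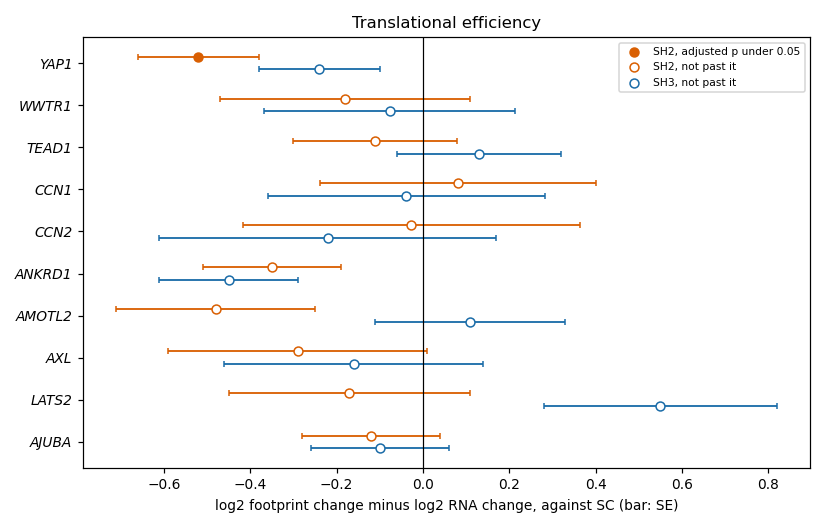
The x axis gives the log2 footprint change minus the log2 RNA change against SC, with the SE as bar, for SH2 (orange) and SH3 (blue), and the filled symbol passed the test. YAP1 with SH2 lies at -0.52, LATS2 with SH3 at 0.55 with a wider bar, and most other bars reach or cross 0.

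Other genes of the pathway were read from lists by role, and all counts are of RNA. They are to be read beside the shares of all genes tested, 31.1% higher and 30.4% lower with SH2 and 27.8% higher and 25.2% lower with SH3. Of 18 Hippo kinases and their scaffolds, 2 were higher and 8 lower with SH2, and 3 higher and 9 lower with SH3. Their median log2 change was -0.12 and -0.28, beside 0.012 and 0.034 over all genes. WWC1, the scaffold KIBRA, had 149 ± 21.7 CPM (SD, n = 3) with SC and fell to 86.5 ± 11.5 with SH2 and 83.5 ± 17.3 with SH3. SAV1, the partner of the MST kinases, fell from 102 ± 5.11 CPM to 66.7 ± 6.83 and 67.1 ± 8.62. The kinases MAP4K4 and TAOK2, which act on LATS or MST, rose: MAP4K4 from 302 ± 67.5 CPM to 776 ± 73.7 and 503 ± 39.8, and TAOK2 from 49.8 ± 2.74 CPM to 75.8 ± 4.35 and 78.5 ± 4.33. MAP4K4 footprints did not pass the test (0.34 and 0.23, edgeR adjusted p = 0.192 and 0.416). Neither did those of TAOK2 (0.46 and 0.57, edgeR adjusted p = 0.131 and 0.0834). SAV1 footprints passed with SH3 (-0.67, edgeR adjusted p = 0.0264) but not with SH2 (-0.14, edgeR adjusted p = 0.585). WWC1 footprints fell with both (-1.73 and -1.25, edgeR adjusted p = 3.91e-05 and 0.000882).

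Of 9 members of STRIPAK, the phosphatase complex that opposes the MST kinases, 1 rose and 3 fell with SH2, and 4 rose and 2 fell with SH3, where 61.4% and 53.0% of all genes were called. STRIP2 fell (-0.67 and -0.99, edgeR adjusted p = 0.000901 and 6.83e-05). STRN4, a striatin subunit, rose in RNA (0.30 and 0.43, edgeR adjusted p = 0.0356 and 0.00694) and had lower translational efficiency with both hairpins (-1.31 and -0.79, edgeR adjusted p = 0.000604 and 0.0492). It was the one gene of these lists called so with both. The SH3 efficiency call was lost in 9 of 12 alternatives, those without any single replicate of SC or SH3 included (edgeR adjusted p up to 0.364), and the SH2 RNA call in 5 of 11, without SC replicate 2 or 3 or SH2 replicate 2 or 3 among them (edgeR adjusted p up to 0.240).

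Of 8 anchors and degradation factors of YAP and TAZ, 2 rose and 2 fell with SH2, and 3 rose and 2 fell with SH3. The casein kinases CSNK1D (0.63 and 0.34) and CSNK1E (0.74 and 0.88), which mark YAP for degradation, rose in RNA. CSNK1E was low in these counts, with mean RNA of 2.37 CPM for SC, 3.96 for SH2 and 4.37 for SH3, whereas CSNK1D had 139 CPM for SC. How reads matching several places were counted is not given. Mean CSNK1E footprints were 0.39 CPM or less per treatment, and this gene was not among those tested in the footprint fit. WTIP (-1.34 and -0.70) and LIMD1 (-0.44 and -0.24), LIM proteins related to AJUBA, fell, so the family moved in both directions. The SH3 call of LIMD1 ended without SC replicate 2 or 3 or SH3 replicate 2 or 3 (edgeR adjusted p up to 0.119). Of 5 other TEAD and VGLL factors tested (6 of 7 were in the table), 1 rose and 2 fell with each hairpin. TEAD2 fell with both (-0.46 and -0.38), and its SH3 call ended without SC replicate 3 or SH3 replicate 1 (edgeR adjusted p = 0.0940 and 0.0535).

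Of 16 other YAP and TAZ targets, 4 rose and 4 fell with SH2, and 3 rose and 3 fell with SH3, with medians of 0.18 and -0.068. Of all genes 61.4% and 53.0% were called, and their medians were 0.012 and 0.034. NT5E, the ecto-enzyme CD73, rose from 325 ± 35.4 CPM to 857 ± 46 with SH2 and 641 ± 66.9 with SH3, and its footprints rose too (1.54 and 0.65, edgeR adjusted p = 2.57e-06 and 0.00408). MYOF, a ferlin of the plasma membrane, rose (0.66 and 0.63), as did IGFBP3, a binding protein of insulin-like growth factors (1.26 and 0.63). RBMS3, an RNA-binding protein, fell (-1.13 and -1.51). The targets named here thus moved both ways with both hairpins. Of the 10 genes, the targets CCN2 and ANKRD1 were lower with both hairpins, AXL was lower with SH2, and LATS2 was higher with SH3. Those higher with both, YAP1 and AJUBA, are not among the targets.

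Of 6 paralogues and ligands tested (9 of 10 were in the table), 1 rose and 2 fell with SH2, and 1 rose and 3 fell with SH3. The kinases related to AXL moved apart. MERTK rose from 19.4 ± 1.57 CPM with SC to 32.5 ± 6.33 with SH2 and 40.8 ± 4.18 with SH3, and TYRO3 fell from 34.2 ± 6.03 to 22.9 ± 3.62 and 17.1 ± 2.52 CPM. Of 10 tested genes of the SRF and MRTF pathway and the actin cytoskeleton, 3 rose and 5 fell with SH2, where 31.1% and 30.4% of all genes did, and 3 rose and 2 fell with SH3, where 27.8% and 25.2% did. ACTG1, the cytoplasmic gamma actin, fell from 3006 ± 239 CPM to 1505 ± 171 with SH2 and 1573 ± 116 with SH3. FHL2 fell (-0.60 and -0.45), and MRTFA, the coactivator that senses free actin (0.59 and 0.60), and TPM1, a tropomyosin (0.40 and 0.54), rose. Mean footprints in SC, SH2 and SH3 were 107, 45.7 and 57.5 CPM for FHL2 and 19.8, 20.6 and 29.7 for MRTFA. For TPM1 they were 125, 103 and 146 CPM, so with SH2 its footprint mean was below SC.

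**Figure D4:**
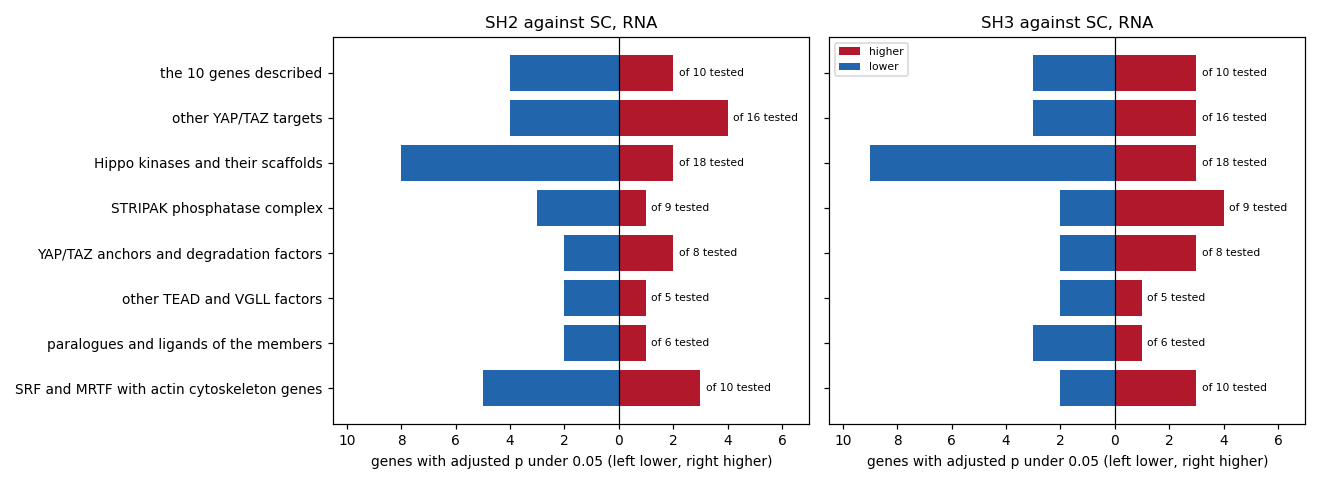
Bars count the genes of each list with an RNA edgeR adjusted p under 0.05, lower to the left of 0 and higher to the right, for SH2 (left panel) and SH3 (right panel), with the number tested beside each. The Hippo kinases and scaffolds have 8 lower genes of 18 with SH2 and 9 with SH3, and the other lists hold 2 to 5 lower genes.

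The genes whose RNA ran most alike were taken by Pearson correlation of log2 CPM over the 9 RNA libraries, among 12710 genes. These libraries share the treatments, so the values are a description. For YAP1 they were SOX13 (0.994), STK24 (0.990) and TMCC3 (0.987), and each of them stood in the order SC, SH3, SH2, as YAP1 does (STK24 at 173, 279 and 367 CPM). For CCN1 they were DNAJB1 (0.976), KRT19 (0.943) and PLCXD1 (0.938). For CCN2 they were DNAJB6 (0.941), POLR2F (0.931) and ZNF814 (0.930). DNAJB1, a heat shock co-chaperone, averaged 275, 254 and 246 CPM in the treatments SC, SH2 and SH3, so its likeness to CCN1 lies in single libraries as well as in group means.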

How the data were processed

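All values come from a single series-wide table keyed by gene symbol. The read counts per gene and library are whole numbers as deposited by the authors. The normalised signal columns are, per the file headers, the authors' DESeq2-normalised values and were not tested. Per the file headers, its log2 changes and p-values are DESeq2 results of the authors. Bowtie 1.2.2 and DESeq2 are named in the submitters' processing notes. The genome build, annotation, counting tool, strand setting and treatment of reads matching several places are not given in the sources used here, so reads from an overlapping antisense gene, such as WWTR1-AS1, cannot be told apart.

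Counts were tested with edgeR 4.0.16 (R 4.3.3; limma 3.58.1; TMM factors, filterByExpr, quasi-likelihood F test) over all genes. The 9 RNA libraries had one fit, the 9 footprint libraries another and all 18 another, whose interaction term tests translational efficiency. Adjustment was by Benjamini-Hochberg across every gene tested. SEs were derived from the log2 change and its F value. The procedure was also run on simulated counts with a single spread for all genes, unlike these data, so that run does not bear on the calls. Same-numbered SC and SH2 libraries deviated together (r = 0.289 to 0.354 in RNA, 0.244 to 0.29 in footprints, all 3 pairs each), so values with the replicate number as a block are given where they change an SH2 call. This pairing comes from the data, not the labels, and the block was fitted over all 3 treatments. Alternatives were DESeq2 1.42.0, other size factors, no filter, a replicate block, fits of the treatments compared, thinned footprints and leaving out each replicate.

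Named genes were the 10 members. From each other list, up to 4 genes called in RNA with both hairpins in one direction were named, ranked by the smaller change, and every gene called in translational efficiency with both. The members and lists were chosen with earlier results of these data known. Promoter sequences come from RefSeq (GRCh38.p14) and were matched by symbol; the build used by the authors may differ. More deeply sequenced RNA libraries give less counting error than footprint libraries.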

Additional observations from a re-analysis of the deposited data

Results flagged for a closer look

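For 5 of the genes the hairpins differed from each other by a direct test of SH2 against SH3 (edgeR quasi-likelihood, Benjamini-Hochberg adjusted p under 0.05). Values are the SH2 change minus the SH3 change on the log2 scale. TEAD1 RNA gave 0.58, with the SH3 libraries lowest. ANKRD1 gave -0.72 in RNA and -0.60 in footprints, with the SH2 libraries lowest. AXL RNA gave -0.56, with SH2 lowest. LATS2 gave -0.68 in RNA and -1.39 in footprints, with SH3 highest. AMOTL2 footprints gave -0.51, which did not hold without several single libraries. FBL stood at 1.46% of SC in SH2 and 0.898% in SH3 in RNA, and the part of this difference in the results was not tested.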

How the results depend on the processing

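Of 29 calls on the 10 genes, 19 kept call and direction in every alternative and 10 lost the call in at least one. Of 51 results not called, 10 gained a call and 25 changed sign in at least one. The 10 differences in translational efficiency between hairpins are not among these, since alternatives were run for their counts alone. The cause was not tested, except that fits with fewer libraries have less information. Leaving out single replicates, the number of the 10 genes called ranged from 3 to 7 for SH3 against SC in RNA (6 with all), from 2 to 4 for SH2 in footprints (4), from 3 to 6 for SH3 in footprints (5) and from 0 to 1 for SH2 in translational efficiency (1). That last count was 0 with no filter, with the replicate block, with thinned footprints and with only the treatments compared. For efficiency the block joins RNA and footprint libraries by number, although numbers 1 and 2 were crossed in SC and SH2.

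All genes called in translational efficiency numbered 489 with SH2, and 935 with DESeq2, 191 with the replicate block, 312 thinned, 184 with only the treatments compared and 110 to 555 without single replicates. With SH3 they numbered 86, and 361 with DESeq2, 23 with the block, 46 with only the treatments compared and 10 to 244 without single replicates. Between hairpins they numbered 2, and 35 without the filter, 248 with DESeq2, 0 with the block, 1 thinned, 36 with only the treatments compared and 0 to 1 without single replicates. Genes called between hairpins in footprints numbered 2459, and 1541 to 2104 without single replicates.

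Over all treatments, same-numbered libraries deviated together (r over 0.1) in 7 of 9 RNA pairs (range -0.0761 to 0.428) and 5 of 9 footprint pairs (-0.114 to 0.305), and not in every pair that involves SH3. With the replicate block, CCN1 and LATS2 passed in RNA with SH2 (edgeR adjusted p = 0.0387 and 0.0177), CCN1 passed in RNA with SH3 (-0.34, 0.0313) and AXL in footprints between hairpins (-0.74, 0.0110). Apart from these and YAP1 with SH2 in efficiency (0.106), it changed no call on the 10 genes. With no filter CCN1 passed with SH3 in RNA (-0.38, 0.0469) and footprints (-0.44, 0.0173), and with only the treatments compared in RNA (-0.42, 0.0456).

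Changes of sign concerned values that were not called. WWTR1 footprints with SH3 (-0.0021) gave 0.0065 with RLE factors, 0.012 with DESeq2, 0.058 with the block, 0.042 thinned and 0.0081 with only the treatments compared. YAP1 footprints with SH3 (0.0057) gave -0.0024 thinned, and CCN1 translational efficiency with SH3 (-0.038) gave 0.016 thinned. Without single replicates, WWTR1 ranged from -0.078 to 0.25 (RNA, SH2), -0.093 to 0.23 (RNA, SH3), -0.027 to 0.12 (RNA, between hairpins), -0.24 to 0.17 and -0.18 to 0.23 (footprints, SH2 and SH3), -0.19 to 0.15 (footprints, between hairpins), -0.53 to 0.22 and -0.42 to 0.32 (efficiency). YAP1 footprints ranged from -0.10 to 0.0083 and -0.022 to 0.078. CCN1 ranged from -0.11 to 0.28 (RNA, between hairpins), -0.48 to 0.0015 (footprints, SH2), -0.39 to 0.44 and -0.51 to 0.32 (efficiency). CCN2 ranged from -0.23 to 0.32 (footprints, between hairpins), -0.52 to 0.25 and -0.71 to 0.065 (efficiency). AMOTL2 ranged from -0.038 to 0.23 (RNA, between hairpins) and -0.0060 to 0.23 (efficiency, SH3), AJUBA from -0.14 to 0.018 (RNA, between hairpins), TEAD1 from -0.26 to 0.083 and -0.016 to 0.32 (efficiency), AXL from -0.70 to 0.068 and -0.57 to 0.20 (efficiency), and LATS2 from -0.57 to 0.068 (efficiency, SH2).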

Other observations

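In the authors' deposited table, the columns of the measure named RD were identical for SH2 and SH3 in 17017 of 17017 genes. In the authors' deposited table the RD log2 value lay a median of 0.0255 from the footprint change minus the RNA change for SH3 and 0.297 from it for SH2, over 14348 genes. Among the 10 genes the largest gap in the authors' deposited table was 0.0395 for SH3 and 0.686 for SH2. The identical RD values thus lay nearer the SH3 difference than that of SH2. The authors' deposited table gave YAP1 an RD log2 value of -0.25 (adjusted p = 0.000863 by the authors' DESeq2) and LATS2 one of 0.56 (0.158) in the columns of both hairpins. The edgeR change in SH3 efficiency was -0.24 for YAP1 and 0.55 for LATS2 (edgeR adjusted p = 0.495 and 0.400). YAP1 therefore passed in RD and not in that edgeR test. RD was not used in the tests above.

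The spread within SC differed widely among the 10 genes. In RNA the coefficient of variation was 3.63% for ANKRD1, 4.99% for YAP1 and 5.98% for AJUBA, and 19.5% for AXL, 21.7% for WWTR1, 26.4% for CCN1 and 30.3% for CCN2. In the SH3 RNA libraries CCN1 had 3.51%, against 25.5% in SH2.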
